A study of Drosophila melanogaster with 4 samples.

Results

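Arm 3R is the right arm of the third chromosome of the fruit fly Drosophila melanogaster. Its H3K27me1 clusters outside the centromere end were followed along the arm in the heads of adult flies. A cluster is 1 region of significant enrichment in the authors' lists. A cluster was taken where it lay on 3R with its midpoint at 2000001 or higher, in coordinates of FlyBase release 5, in which 3R is numbered away from the centromere. The segment is 25.9 Mb long. It held 1350 of the 6501 clusters of replicate 1, 1435 of the 6601 clusters of replicate 2, and 1973 of the 9662 clusters in a further list, which the authors made for the set of both replicates. Arms 2L and 3L, which are numbered towards the centromere, served as the background without the 2 Mb at their centromere ends. They held 2387 clusters in replicate 1, 2516 in replicate 2 and 3507 in the list of the replicate set.

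The study used chromatin immunoprecipitation and sequencing with an antibody (Millipore) against histone H3 monomethylated at lysine 27. There are 4 libraries, 2 of H3K27me1 ChIP and 2 of Input, all from head nuclei of wild-type Oregon-R (Oregon-R-modENCODE) flies at a mixed adult stage, with no other genotype or treatment. Per the labels, flies came from population cages run on a 22-day adult cycle, heads were collected with sieves, and each Input was the input of 1 ChIP list. The whole head was used, so the lists merge neurons, photoreceptors, glia, muscle and fat cells, and more cells with the mark cannot be told apart from more of the mark per cell. The labels do not say whether separate fly collections gave the replicates, so their spread may be technical. The lists hold no read counts, the depth is unknown, and no Input list was used here.

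Lysine 27 of histone H3 is methylated in flies by E(z), the catalytic subunit of Polycomb repressive complex PRC2, which adds methyl groups in steps. The trimethylated form marks genes silenced by Polycomb, the demethylase Utx removes methyl groups, and acetylation by the CBP homologue Nejire uses the same lysine. In mouse embryonic stem cells the monomethylated form has been described over the bodies of transcribed genes. Arm 3R carries both Hox gene complexes of the fly, the Antennapedia complex in its centromere-proximal part and the bithorax complex near its middle, and both are classic Polycomb targets. The annotation at hand is of release 6. No gene, and neither Hox complex, was placed on the coordinates given here, and results are told by region.

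H3K27me1 clusters covered about the same share of 3R in both replicates, and 3R lay between 2L and 3L. The covered share of the segment was 20.5% in replicate 1 and likewise 20.5% in replicate 2 (mean 20.5% ± 0.0175, SD, n = 2), which was 5.30 Mb and 5.31 Mb. Together 2L and 3L were covered to 20.9% and 20.6% (20.8% ± 0.227). The difference, 3R minus 2L and 3L, was -0.463 percentage points in replicate 1 and -0.118 in replicate 2. Against 2L alone it was 1.36 and 1.79 points, and against 3L alone -2.16 and -1.89 points, so the sign depended on which arm was the background. It also turned with whole arms (mean 1.30 points) and for the upper 50% of clusters by score (mean 0.415 points). Each of the single-arm differences was larger than the SD between replicates on the arms compared. With 2 libraries the smallest two-sided p of an exact permutation test is 0.5, so no difference between arms could pass a test.

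Per Mb, 3R had slightly fewer clusters than 2L and 3L together, and their median width was slightly larger, but neither direction held throughout. There were 52.1 and 55.4 clusters per Mb on 3R in replicates 1 and 2, against 54.8 and 57.8 on 2L and 3L. The ratio was 0.951 and 0.959. It was 1.03 and 1.04 against 2L, and 0.886 and 0.893 against 3L, so in number too 3R stood between the other arms. The mean ratio to 2L and 3L was 1.02 with whole arms and also 1.02 for the upper 50% of clusters by score. The median width on 3R was 2891 bp in replicate 1 and 2716 bp in replicate 2 (2804 ± 124 bp, SD, n = 2). On 2L and 3L it was 2780 bp and 2614 bp (2697 ± 117 bp). The difference of 111 bp and 102 bp had the same sign and nearly the same size in both replicates (mean 106 bp, SD of the difference 6.72 bp, n = 2). It is smaller than the SD of the medians themselves between replicates. Once clusters less than 1 kb apart were merged, the difference was 140 bp and -56.5 bp. The narrowest clusters of 3R measured 1301 bp and 1302 bp in replicates 1 and 2, and 10% of its clusters were wider than 7687 bp and 7010 bp.

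**Figure D1:**
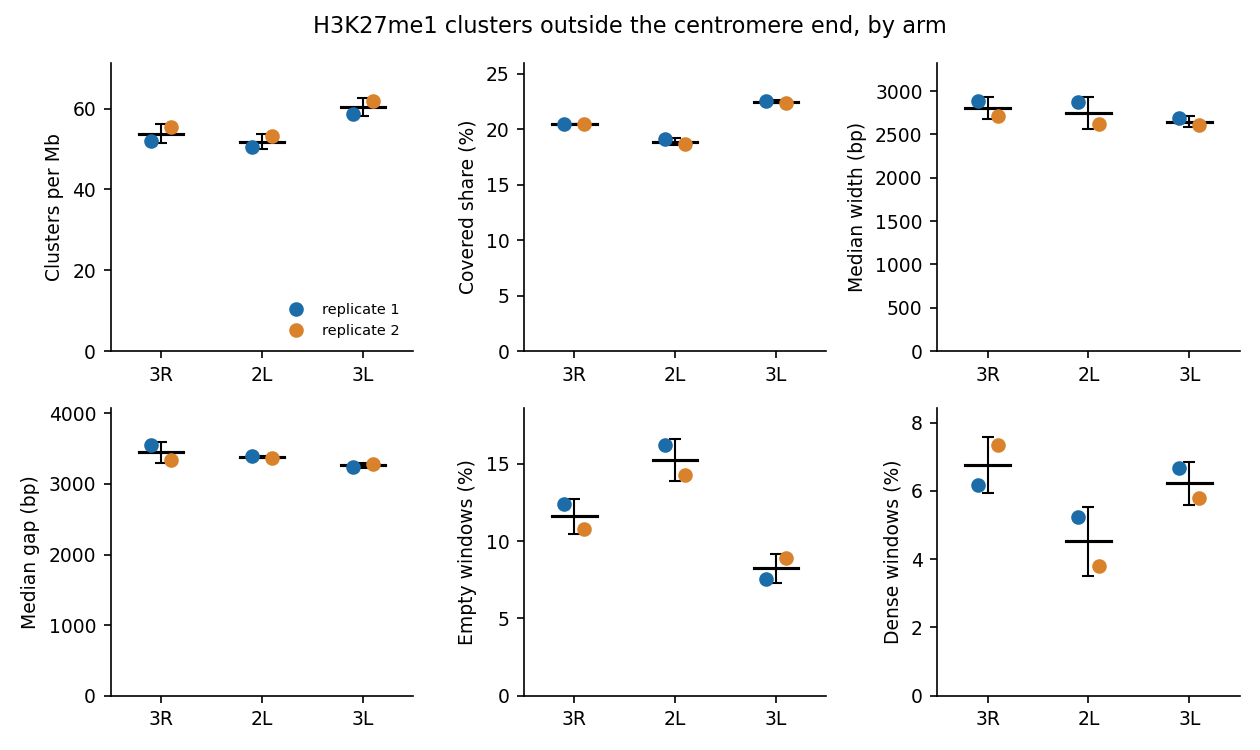
Cluster number, covered share, median width, median gap, and share of empty and dense 100 kb windows (vertical axes, from 0) on 3R, 2L and 3L outside the centromere ends. Points are the replicates, lines the mean and bars the SD (n = 2). In clusters per Mb, covered share and empty windows, 3R lies between 2L and 3L.

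The authors' score per cluster was almost alike on all arms. Its scale is not stated in the files. The score is used here only to rank clusters, to set arms of the same list side by side and to compare the 2 replicates. The median score on 3R was 0.71 in replicate 1 and 0.69 in replicate 2, against 0.69 and 0.69 on 2L and 3L. The difference was 0.02 and 0.01 score units. On 3R, 10% of the clusters scored below 0.53 in replicate 1 and below 0.51 in replicate 2, and 10% scored above 1.06 and 1.03. Wider clusters had higher scores. Spearman's rho between width and score was 0.813 over the 1350 clusters of replicate 1 and 0.812 over the 1435 of replicate 2, against 0.800 and 0.795 on 2L and 3L. These are descriptions across clusters of 1 library, which share its depth and are not independent.

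The highest scores that the replicates shared on 3R belonged to clusters well above the median width, but not to the widest. Among clusters that overlapped 1-to-1 between the replicates, the highest was 24658841 to 24669717 (replicate 1 coordinates, 10.9 kb wide), with scores of 1.55 in replicate 1 and 1.58 in replicate 2. Next came 2261305 to 2273722 (12.4 kb), scoring 1.53 and 1.48. Its 100 kb window, 2200001 to 2300000, held 10 and 11 clusters in replicates 1 and 2, and the window before it 4 and 5. The third was 10089944 to 10104906 (15.0 kb, scores 1.44 and 1.49), the fourth 5342857 to 5351434 (8.58 kb in replicate 1 and 9.76 kb in replicate 2, 1.47 and 1.45) and the fifth 3841451 to 3852756 (11.3 kb, 1.43 and 1.41). Each of these 5 pairs matched 1 cluster of the replicate set. Within a pair the scores of the replicates differed by at most 0.05.

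Broad clusters of 10 kb or more numbered 72 on 3R in replicate 1 and 64 in replicate 2. That was 5.33% and 4.46% of its clusters, against a background of 4.73% and 3.90% on 2L and 3L. They held 18.7% and 16.1% of the covered length of 3R, against 18.0% and 15.0% on 2L and 3L. All 72 and all 64 overlapped a cluster of the other replicate, as did all 113 and 98 on 2L and 3L. Clusters of 20 kb or more numbered 6 and 2 on 3R, against 11 and 7 on 2L and 3L. The widest measured 27315 bp and 27331 bp on 3R, against 54028 bp and 29075 bp on 3L.

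The widest domains of 3R were long runs of enrichment that the replicates broke in part at different places. They were taken from the replicate-set list where a cluster overlapped both replicates, and since that list is made for the same libraries, its agreement with them is no independent check. The widest ran from 5827770 to 5868358 (40.6 kb, set score 1.13) and was covered to 94.7% and 93.1% in replicates 1 and 2, by 3 clusters in each. The second, 27243458 to 27283082 (39.6 kb), was covered to 82.9% and 87.2% by 7 clusters in each replicate. It is the weakest of the 10 widest, with a set score of 0.67 and no replicate cluster in it above 0.75 in replicate 1 or 0.85 in replicate 2. The third, 5700790 to 5736974 (36.2 kb, set score 0.86), lies in the same dense stretch as the first and was held by 2 clusters in replicate 1 and 4 in replicate 2.

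The other 7 of the 10 widest measured 24.3 kb to 34.2 kb. Domain 4, 9809424 to 9843650 (34.2 kb), was covered to 95.9% and 91.1%, and domain 5, 16610442 to 16643858 (33.4 kb), to 96.9% and 83.0%. Domain 6, 25884048 to 25915812 (31.8 kb, 94.8% and 97.2%), holds the widest single cluster of both replicates. In replicate 1 that cluster ran from 25884175 to 25911489, and its counterpart in replicate 2 from 25884107 to 25911437, with scores of 0.98 and 0.91. Domains 7, 8 and 9 are neighbours between 19613400 and 19748198, and domain 7 (31.3 kb, set score 1.12) was covered to 97.4% and 97.8%. Domain 9, 19686266 to 19713530, was 1 cluster of 26.8 kb in replicate 1 and 4 clusters in replicate 2, the widest of them 8.79 kb. The tenth, 14895118 to 14919380, was covered to 69.0% and 86.4%, with the lowest mean of the 10 (77.7% ± 12.3, SD, n = 2). In replicate 2 domains 5 and 9 were covered less than the tenth, at 83.0% and 85.1%.

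**Figure D2:**
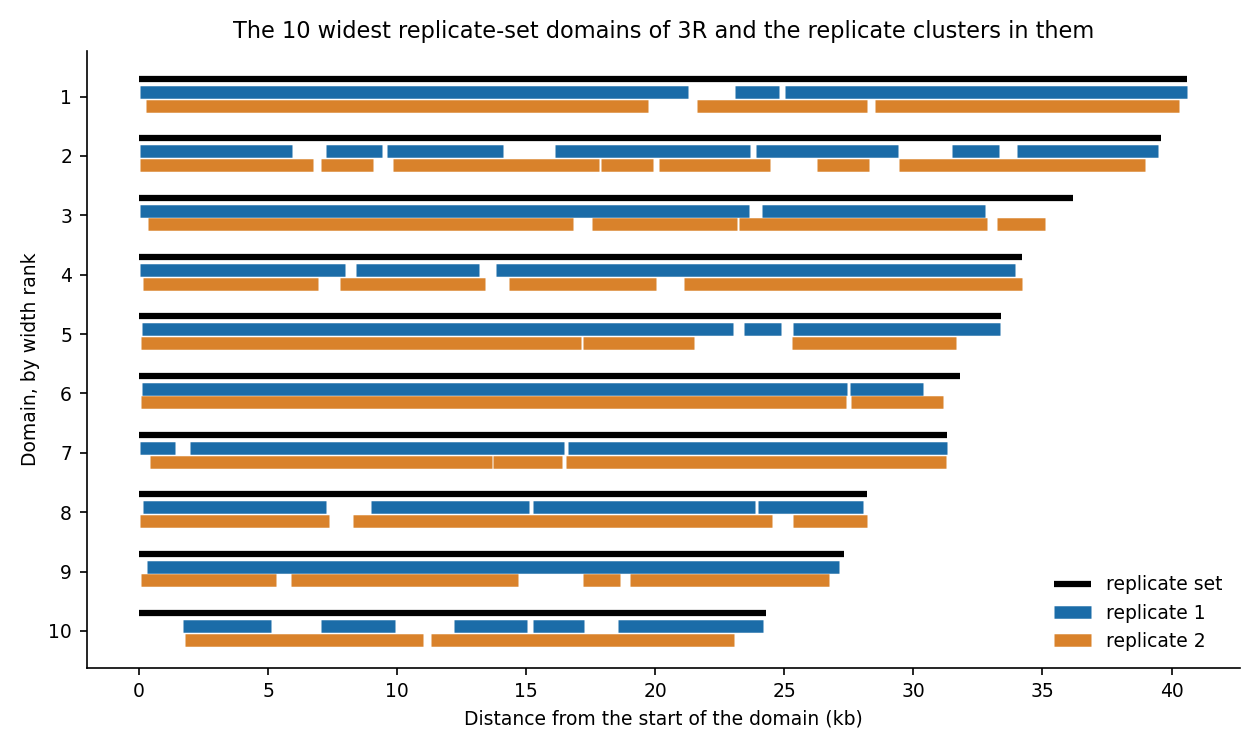
The 10 widest replicate-set clusters of 3R that overlap both replicates, ranked by width downwards, drawn as distance from the start of each domain in kb. Black lines are the replicate-set clusters, blue bars the clusters of replicate 1 and orange bars those of replicate 2. The replicates fill the same domains but are in part broken at different points, as in domain 9, which is 1 cluster in replicate 1 and 4 in replicate 2. In domain 6 the only break lies between 27.4 kb and 27.6 kb in both replicates.

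Most clusters of 3R had no other cluster within 1 kb. That held for 801 of the 1350 in replicate 1 and 877 of the 1435 in replicate 2. On 2L and 3L it held for a similar share, 1412 of 2387 and 1517 of 2516. The median gap between neighbouring clusters of 3R was 3550 bp in replicate 1 and 3345 bp in replicate 2, against 3335 bp and 3311 bp on 2L and 3L. Gaps under 1 kb made up 23.0% and 22.2% of the gaps of 3R, against a background of 23.0% and 22.5%, differences of 0.0257 and -0.261 points. Runs of 3 or more clusters less than 1 kb apart numbered 50 in replicate 1 and 58 in replicate 2. These runs held 12.7% and 13.9% of the clusters of 3R. On 2L and 3L such runs held 12.8% and 13.0%. In replicate 1 the longest run joined 5 clusters from 9806249 to 9848293 (42.0 kb), around domain 4. In replicate 2 the run with the most clusters joined 6 from 25600747 to 25624942 (24.2 kb). Whether short gaps part distinct clusters or split 1 domain was not tested.

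Isolated clusters, at least 20 kb from the nearest cluster on both sides, numbered 64 in replicate 1 and 54 in replicate 2. That was 4.75% of 1348 and 3.77% of 1433 clusters of 3R with a neighbour on both sides. Isolated clusters of 2L and 3L were not counted, so no background is given for them. The isolated clusters of 3R were narrow, at a median of 2148 bp and 2003 bp wide, and had median scores of 0.69 and 0.68. Of them 65.6% and 59.3% overlapped a cluster of the other replicate, against 84.7% and 82.1% of all clusters of 3R.

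Stretches without a cluster in either replicate took up a large part of 3R. Those of 50 kb or more numbered 102 and summed to 10.5 Mb, which was 40.6% of the segment. On 2L they numbered 80 (44.4% of its segment) and on 3L 77 (35.8%), so 3R again lay between these arms. The longest ran from 2485769 to 2890116 (404 kb), where replicate-set clusters touch only 0.0230 kb at its edges. The second, 12478571 to 12814489 (336 kb), near the middle of the arm, was overlapped over 1.09 kb by 2 replicate-set clusters, which did not both lie wholly inside it. The third, 19209164 to 19486038 (277 kb), was overlapped over 8.95 kb by 7 of them, none scoring above 0.50. The fourth, 18618398 to 18874353 (256 kb), begins directly after a broad cluster (11070 bp in replicate 1, 10907 bp in replicate 2). The fifth was 8541769 to 8775064 (233 kb). Whether reads can be aligned uniquely in these stretches was not examined. The start of the segment also fell in such a stretch: the last cluster outside it was 1826901 to 1833187 in replicate 1 (6287 bp, score 1.03) and 1828139 to 1833117 in replicate 2 (4979 bp, 0.96), and the first inside was 2168653 to 2171038 (2386 bp, 0.70) and 2169294 to 2171402 (2109 bp, 0.60).

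Coverage was then read in 259 windows of 100 kb. A window was called empty where no base lay in a cluster and dense where at least 50% did. The median covered share of the windows of 3R was 16.2% in replicate 1 and 16.6% in replicate 2, against 17.8% and 18.2% on 2L and 3L, and the most covered 10% of windows reached at least 46.7% and 45.7%, against 45.0% and 43.6%. The upper 25% of the windows (64 of them) held 55.0% and 54.0% of the covered length of 3R. On 2L the upper 25% held 53.6% and 53.0%, and on 3L 51.5% and 50.7%. Neighbouring windows were only weakly alike on all 3 arms. Pearson's r between a window of 3R and the next was 0.174 and 0.165 over the windows of each replicate. It was 0.236 and 0.232 on 2L, and 0.129 and 0.156 on 3L. Between windows of 3R 5 apart it was -0.024 and -0.033, as a description of windows that share a library.

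Empty windows made up a share of 3R close to that of the background. They numbered 32 in replicate 1 and 28 in replicate 2, which is 12.4% and 10.8% of the windows, against 11.7% and 11.5% of the 435 windows of 2L and 3L. The difference changed sign between replicates (0.631 and -0.683 points). On 2L 16.2% and 14.3% of windows were empty, and on 3L 7.56% and 8.89%. Of the windows of 3R, 22 (8.49%) were empty in both replicates and 14 of these held no base of a replicate-set cluster either. On 2L 28 of 210 windows (13.3%) were empty in both replicates, and on 3L 17 of 225 (7.56%). Neighbouring windows of 3R empty in both replicates formed 2 runs, each of 3 windows: 2500001 to 2800000 and 12500001 to 12800000. They lie inside the 2 longest stretches, and neither held any base in a cluster of the replicate set. Such runs of 2 or more windows numbered 5 on 2L, the longest of 3 windows, and 3 on 3L, the longest of 4.

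Dense windows numbered 16 on 3R in replicate 1 and 19 in replicate 2, or 6.18% and 7.34%, against a background of 5.98% and 4.83%. The difference of 0.201 and 2.51 points averaged less than its own SD of 1.63 (n = 2). Of the windows of 3R, 14 were dense in both replicates, against 8 of 210 on 2L and 12 of 225 on 3L. They held 11.1% of the clusters and 16.3% and 16.1% of the covered length. The median cluster width was 3725 bp and 3644 bp inside them and 2755 bp and 2625 bp elsewhere on 3R, a description only, since cluster width is part of the covered share that defines a dense window. Of the broad clusters, 22 of the 72 and 19 of the 64 lay in them.

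The windows dense in both replicates left long spans of 3R free, but whether they were placed unevenly was not tested. Runs of neighbouring windows dense in both replicates were 5700001 to 5900000, covered to 68.1% and 67.7%, and 19600001 to 19900000, covered to 60.8% and 58.9%. On 2L there was 1 such run, of 2 windows, and on 3L there was none. The longest span of 3R without a window dense in both reached from 7500001 to 16600000, or 9.10 Mb. It had 9 windows empty in both and coverage of 17.6% and 17.7%. Inside it the window 9800001 to 9900000 was dense in replicate 1 (52.0%) and just under the limit in replicate 2 (48.7%). No window was dense in both between 19900000 and 24900001 either. Such spans were not measured on 2L and 3L. The most covered window of 3R was 5700001 to 5800000, at 81.9% and 83.7%. On 2L and 3L the highest window share was 73.8% and 72.5%. In the list of the replicate set the order was the other way, with at most 89.7% on 3R and 97.2% on 3L. The window of 3R was filled by only 6 and 8 clusters with their midpoint in it. The second, 17400001 to 17500000, reached 70.1% and 72.7% with 13 and 14 clusters. The third was 18500001 to 18600000 (64.9% and 62.5%), which lies just before the fourth-longest stretch without clusters. The fourth was 27200001 to 27300000 (61.9% and 65.2%) and the fifth 19700001 to 19800000 (64.6% and 60.1%). A window could hold many clusters without being dense: the window with the most clusters in replicate 2, 10500001 to 10600000, had 17 of them and was covered to 39.6%, with 12 clusters and 46.5% in replicate 1. Spearman's rho between the number of clusters and the covered share was 0.924 and 0.934 over the 259 windows. This is a description only, since the counted clusters also make up the covered share.

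On a coarser scale, 1 Mb blocks of 3R were covered to between 11.0% and 38.5% (mean of both replicates), with a median of 18.0% over 25 full blocks. The lowest was 13000001 to 14000000, at 11.0% and 11.1%. The 5 Mb from 17000001 to 22000000 were the most covered of the 5 full spans of that length, at 26.1% in both replicates, with 65.0 and 70.6 clusters per Mb. The other 4 lay between 17.2% and 19.8% in replicate 1 and between 18.1% and 19.8% in replicate 2.

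**Figure D3:**
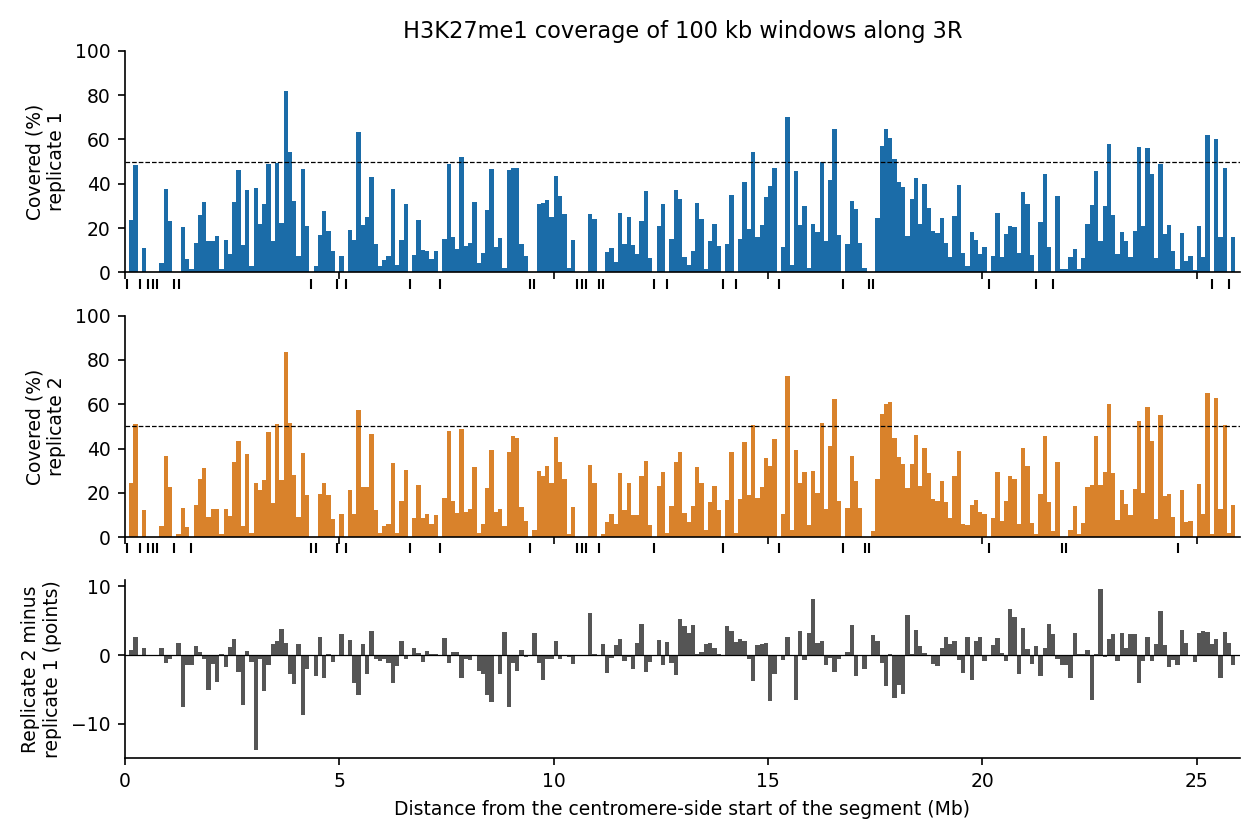
Share of each 100 kb window of 3R in clusters (percent) against the distance from the centromere-side start of the segment in Mb, for replicate 1 (top) and replicate 2 (middle), and their difference in percentage points (bottom). The dashed line marks the 50% of a dense window and ticks below the axis mark empty windows. Both replicates show the same peaks, the tallest at 81.9% and 83.7%.

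The replicates marked nearly the same parts of 3R. Of its replicate 1 clusters 1143 of 1350 (84.7%, exact 95% interval 82.6% to 86.5%) overlapped a replicate 2 cluster by at least 1 bp, and 1178 of 1435 replicate 2 clusters (82.1%, 80.0% to 84.0%) overlapped a replicate 1 cluster. The background on 2L and 3L was 84.1% and 82.3%, inside these intervals, which cover counting error only. The lists shared 4.44 Mb of 3R, or 71.9% of the 6.17 Mb in either list, against 70.7% on 2L and 3L. The covered length of 3R in replicate 2 was 1.00 times that in replicate 1, against 0.985 times on 2L and 3L.

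Edges of shared clusters were placed closely. On 3R 870 pairs of clusters overlapped 1-to-1. The median offset was 182 bp for their starts and 171 bp for their ends, against 183 bp and 190 bp for the 1538 pairs of 2L and 3L. In 10% of the pairs of 3R the starts differed by more than 1097 bp. Spearman's rho between the scores was 0.858 over these pairs, against 0.840 on 2L and 3L, and between the widths 0.860 against 0.854. The score in replicate 2 minus that in replicate 1 had a median of -0.01 and an SD of 0.11 between pairs. Some clusters were split: 127 clusters of replicate 1 overlapped 2 or more clusters of replicate 2, and 99 clusters of replicate 2 overlapped 2 or more of replicate 1.

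What the replicates did not share was narrow. The 207 clusters of 3R found only in replicate 1 had a median width of 1563 bp and a median score of 0.59, against 3338 bp and 0.75 for the 1143 shared ones. The 257 found only in replicate 2 had 1594 bp and 0.59, against 3220 bp and 0.74. Among clusters under 1.5 kb, 43.4% (exact 95% interval 35.2% to 51.9%) of replicate 1 and 44.0% (36.3% to 51.9%) of replicate 2 were found in the other replicate. From 1.5 kb to 2 kb it was 62.0% and 59.2%, from 2 kb to 3 kb 92.6% and 88.5%, and from 3 kb to 5 kb 97.0% and 99.7%. All clusters of 5 kb or more, 315 in replicate 1 and 318 in replicate 2, were found in the other replicate. A wide cluster overlaps another list more often by its width alone, and the share due to width was not tested. In the class from 2 kb to 3 kb 3R stood above 2L and 3L in replicate 1 (92.6% against 86.6%) and below them in replicate 2 (88.5% against 91.0%), so the arms were not ordered alike in the replicates.

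**Figure D4:**
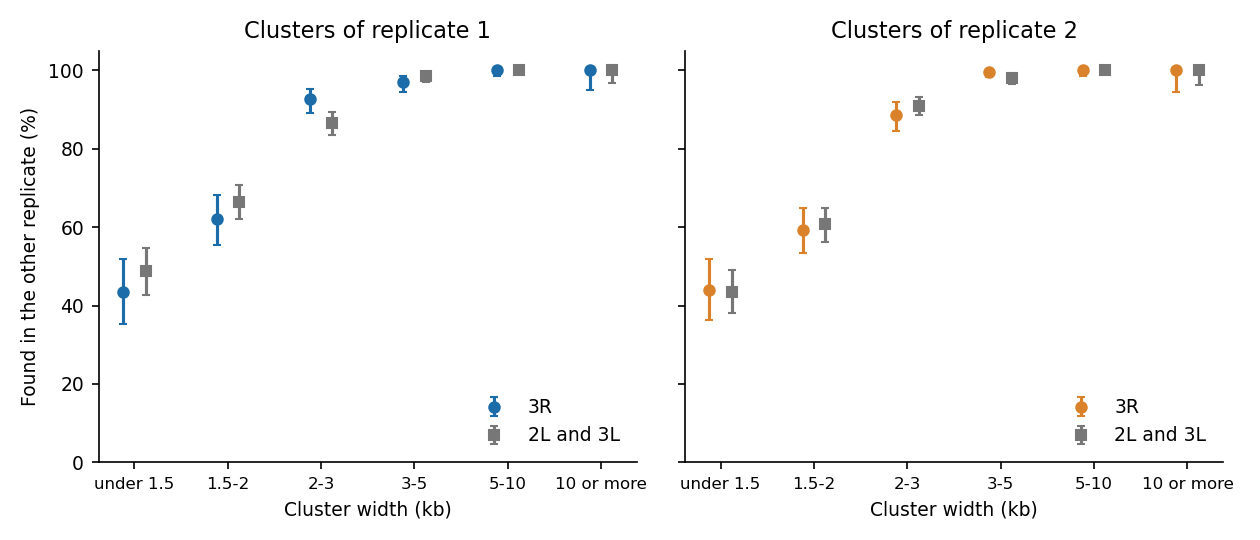
Share of clusters found in the other replicate (percent) by cluster width in kb, for 3R (coloured circles) and for 2L and 3L (grey squares), with exact 95% binomial intervals. On 3R the share goes from 43.4% and 44.0% in the narrowest class to 100% from 5 kb upwards.

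Window by window the replicates ran in parallel. Pearson's r between their covered shares was 0.986 and Spearman's rho 0.983 over the 259 windows of 3R, against an r of 0.984 on 2L and 0.984 on 3L. The absolute difference had a median of 1.57 percentage points. Replicate 2 was higher in 124 windows, lower in 113 and equal in 22. The window that differed most was 5000001 to 5100000, covered to 38.3% by 11 clusters in replicate 1 and to 24.5% by 7 clusters in replicate 2. Next were 24700001 to 24800000 (14.0% and 23.7%), 6100001 to 6200000 (46.7% and 38.0%), 18000001 to 18100000 (21.8% and 30.0%) and 10900001 to 11000000 (46.0% and 38.5%).

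**Figure D5:**
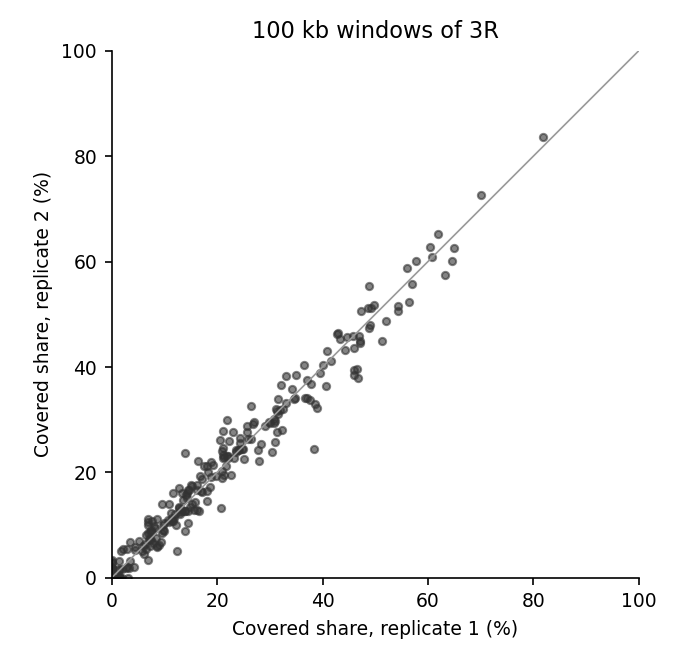
Covered share of the 259 windows of 100 kb on 3R in replicate 1 (horizontal axis, percent) and replicate 2 (vertical axis, percent), with the line of equality in grey. The points follow the line (r = 0.986), and the farthest from it is the window covered to 38.3% and 24.5%.

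In the authors' list for the replicate set lay nearly all replicate clusters of 3R and many more clusters besides. It missed 3 of the 1350 and 4 of the 1435. Of its 1973 clusters on 3R, 972 (49.3%, exact 95% interval 47.0% to 51.5%) overlapped both replicates, against a background of 47.9% on 2L and 3L. A further 366 (18.6%, against 18.7%) overlapped 1 replicate and 635 (32.2%, against 33.4%) overlapped neither. Those in both had a median width of 4946 bp and a median score of 0.67 and held 77.2% of the listed length. The median width of those in neither was 1333 bp and their median score 0.41, and they held 12.1%. The replicate lists hold no cluster of 3R narrower than 1301 bp, and 296 of the 635 clusters in neither (46.6%) were narrower than that. On 2L and 3L the share was 47.7%.

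High scores in the list of the replicate set came from 2 kinds of cluster. Of its 107 clusters of 3R with a score of 1 or more, 104 overlapped both replicates and 3 overlapped neither. On 2L and 3L, 170 of 172 such clusters overlapped both and 2 overlapped neither, and these 2 were also narrower than 1301 bp. The 3 of 3R, named after their values were seen, were all narrow. The highest score of 3R in this list, 3.05, belonged to 22384100 to 22385100 (1001 bp), and the second, 1.58, to 21658356 to 21659356 (1001 bp). The third of these, 17128410 to 17129626 (1217 bp), scored 1.49. The highest-scoring cluster that both replicates shared, 24658554 to 24669736 (11183 bp), scored 1.54 in the same list. The replicate lists hold no cluster of 3R as narrow as those 3.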

How the data were processed

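ChIP-seq of H3K27me1 in fly head nuclei was deposited as 3 cluster lists in GFF3, 1 per ChIP replicate and 1 for the replicate set. Per the file headers, each line gives a start, an end and 1 score for a region of significant enrichment in FlyBase release 5. The aligner was Bowtie 0.12.7, per the submitters' processing notes. How clusters were called, and how replicates were joined, is not given in the sources used here. The score deposited by the authors has no stated unit, so no fold was computed. Read as log2 values, differences among the 20 highest scores of 3R gave ratios of whole numbers for 0 of 190 pairs in both replicates. In the replicate set it was 2 of 190. Log2 values of normalised counts need not give such ratios, so this cannot decide the scale.

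Clusters were assigned to a segment by their midpoint, and segment lengths came from the headers. In replicate 2, 3 pairs of clusters on 3R touched or overlapped and were joined for gaps and covered length. Regions were named by rule: the 10 widest domains, the 5 highest pairs, the 5 most covered and 5 most different windows, the 5 longest stretches and all runs of empty or dense windows. The members, lists and measures were chosen with earlier results of these data known. Depth is unknown, values over 2 libraries are given with their SD, and intervals on shares are exact binomial (Clopper-Pearson). Python 3.11.15, numpy 2.4.6, scipy 1.17.1 and matplotlib 3.10.9 were used, and the interval functions were tested on simulated data. Upper scores, other windows, overlaps and arms were tried as alternatives. Genes and sequences were left out because no release 5 genome or annotation was used here.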

Additional observations from a re-analysis of the deposited data

How the results depend on the processing

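The place of 3R relative to 2L and 3L depended on the background and on the segment, as the arms differ among themselves. The ratio of clusters per Mb, 0.955 as reported, became 1.04 against 2L alone, 0.890 against 3L alone, 1.02 with whole arms and 1.02 for the upper 50% by score. The difference in covered share, -0.291 points as reported, became 1.57 against 2L, -2.03 against 3L, 1.30 with whole arms and 0.415 for the upper 50% by score. The difference in median width, 106 bp, was 57.5 bp against 2L, 155 bp against 3L, 153 bp with whole arms, 148 bp for the upper 50% by score and 41.5 bp (140 bp in replicate 1 and -56.5 bp in replicate 2) once clusters less than 1 kb apart were merged. The difference in empty windows, -0.0262 points, was -3.66 against 2L, 3.36 against 3L and -3.13 with whole arms. That in short gaps, -0.118 points, was 0.666 against 2L, -0.744 against 3L and -0.393 for the upper 50% by score. For these upper clusters the difference in median score was 0.00, and the share found in the other replicate was 2.52 points higher on 3R, against 0.202 as reported. The cause of these changes was not tested. The difference in dense windows, 1.35 points, had a positive mean under all 8 alternatives run for it, from 0.201 to 2.51 points. Against 3L alone it was -0.489 points in replicate 1 and 1.56 in replicate 2. Its SD of 1.63 is larger than the difference, so these alternatives cannot show that it is stable. The r between replicates was 0.987 in 200 kb windows, 0.965 for the upper 50% by score and 0.985 with the whole arm. Of the replicate-set clusters of 3R, 92.5% of the upper 50% by score overlapped both replicates, and 37.0% did where at least 50% of both clusters had to overlap. Leaving out either replicate gave 0.951 and 0.959 for the ratio of clusters per Mb and -0.463 and -0.118 for the covered share. No paired analysis was possible because the Input libraries have no list here and no result comes from a test. The lists hold no read counts, so what depth limits cannot be given.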

Other observations

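The small differences between the replicates were not spread evenly along 3R, a pattern noticed in the values and then described. In the 12 full 1 Mb blocks nearer the centromere, replicate 1 was covered to 18.7% and replicate 2 to 18.0%, and replicate 2 was lower in 9 of them. In the 13 blocks nearer the telomere the shares were 21.8% and 22.4%, and replicate 2 was higher in 10. Replicate 2 was also lower in most of the nearer blocks of 2L (6 of 10) and of 3L (7 of 11). In the farther blocks it was higher in 3 of 11 on 2L and in 5 of 11 on 3L. The number of clusters on 3R was 586 and 587 in the nearer blocks, and 716 and 793 in the farther ones. Over the 25 blocks, Spearman's rho between the distance from the centromere and the coverage of replicate 2 minus replicate 1 was 0.618, against -0.101 over 21 blocks of 2L and 0.007 over 22 blocks of 3L. The blocks of an arm share their libraries, the difference between arms was not tested, and no cause was tested.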
